A study of Mus musculus with 20 samples.

Results

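ETS factors are transcription factors that share the ETS DNA-binding domain, and 9 of their genes were examined in E13.5 mouse hearts, out of the 48795 genes in the table. Ets2, Erg, Ets1, Fli1, Elk3, Etv1, Etv4, Etv5 and Etv6 were taken by name and not by a cut on their values, with earlier results of these data known. Ets2 and Erg lie in the stretch of chromosome 16 that both mutant strains carry in 3 copies, and the other 7 genes lie outside it in 2 copies, Etv5 among them although it is on the same chromosome. All 9 passed the filter on low values in every comparison.

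The ETS domain recognises DNA with a GGAA core, and neighbouring bases and partner proteins decide which family member acts. Ets1 and Ets2 are a pair of close paralogues that ERK kinases phosphorylate and activate. Erg and Fli1 form another pair, expressed in endothelial and endocardial cells, where they maintain vascular genes. Elk3 is a ternary complex factor of endothelial cells that works with serum response factor. Etv1, Etv4 and Etv5 make up the PEA3 group, whose transcription follows FGF signalling through ERK, and Etv1 is also used by atrial and conduction cardiomyocytes. Etv6 is a repressor required in blood and endothelium. The human orthologues of Ets2 and Erg lie on the chromosome that is trisomic in Down syndrome.

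RNA was sequenced from 20 whole hearts, 5 in each of 4 groups. Dp3Tyb hearts carried an extra copy of the interval from Mir802 to Zbtb21, and Ts1Rhr hearts carried an extra copy of a shorter interval, named for Cbr1 and Fam3b but not counting Cbr1 itself among its 3-copy genes, while each strain had its own wild-type (WT) littermates with 2 copies. All mice were kept on a C57BL/6J background, and every group was taken at E13.5. The labels name heart defects for all 5 Dp3Tyb hearts and for replicates 1 and 2 of Ts1Rhr, and no defects for replicates 3 to 5 of Ts1Rhr, so Ts1Rhr was kept as 1 group by genotype. The study describes the Ts1Rhr strain as free of heart defects, and the label of those hearts goes against that description. Both alleles are germline duplications present in all cells of the embryo, and whether hearts of a group came from different litters is not given in the sources used here, so p-values measure the spread between these samples. In whole hearts, fewer cells of a type and less RNA per cell cannot be told apart.

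Each library held 6.6 M to 19.6 M reads in genes. The share of these reads that came from the 37 mitochondrial genes ran from 4.85% to 19.5%, and it exceeded 10% in 7 libraries: replicate 5 of the WT littermates of Dp3Tyb, replicate 5 of Dp3Tyb, replicates 1, 2 and 4 of the WT littermates of Ts1Rhr, and replicates 1 and 2 of Ts1Rhr. The WT littermate of Dp3Tyb with 19.5% was also the shallowest library. Heart markers were present in all groups. Markers of lung and foregut epithelium, a tissue next to the heart, were also detected, and 14 of 14 tested were higher in Dp3Tyb than in its littermates (median log2 difference 1.64) while 0 of 13 were higher in Ts1Rhr (median -1.54), none past the threshold. Summed over that list of 15 genes, normalised counts were 2023 to 2702 in the WT littermates of Dp3Tyb, 2319 to 3247 in Dp3Tyb, 2339 to 3126 in the WT littermates of Ts1Rhr and 2078 to 2756 in Ts1Rhr, and no gene of it was at 0 in all hearts of a group. Id2, with group means of 1248 to 1411, and Bmp4, with 420 to 470, weighed most in these sums. The sums therefore say little of the other genes of the list. Of its defining genes, Nkx2-1 ran from 0 to 56.1 and Sftpc from 0 to 3.62 over the 20 hearts, and the part of this tissue in the results below was not tested.

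The promoters of the 2 triplicated genes are shown because their copy number is what the strains change, with the GGAA core, read on either strand as GGAA or TTCC, in capitals. The sequences are from RefSeq (GRCm38.p6), run from 250 bases before to 50 bases after a start site, and are written 5′ to 3′ on the strand of the gene. Ets2 had 1 such start, at chr16:95702157-95702456 on the plus strand. Erg had 3 on the minus strand, at chr16:95586544-95586843 (A), chr16:95530316-95530615 (B) and chr16:95459299-95459598 (C), and values per gene do not say which of them was used.
Ets2: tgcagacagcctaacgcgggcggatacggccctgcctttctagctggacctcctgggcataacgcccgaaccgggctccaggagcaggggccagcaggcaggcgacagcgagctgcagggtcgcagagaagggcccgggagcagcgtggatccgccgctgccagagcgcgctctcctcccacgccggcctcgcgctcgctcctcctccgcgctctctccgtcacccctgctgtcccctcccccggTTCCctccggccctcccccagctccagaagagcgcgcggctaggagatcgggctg
Erg, start A: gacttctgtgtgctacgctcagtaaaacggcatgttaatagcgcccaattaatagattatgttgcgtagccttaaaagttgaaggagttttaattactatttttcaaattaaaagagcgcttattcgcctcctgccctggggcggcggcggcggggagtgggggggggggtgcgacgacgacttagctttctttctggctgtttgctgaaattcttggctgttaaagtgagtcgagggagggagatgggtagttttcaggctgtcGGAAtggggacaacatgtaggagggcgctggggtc
Erg, start B: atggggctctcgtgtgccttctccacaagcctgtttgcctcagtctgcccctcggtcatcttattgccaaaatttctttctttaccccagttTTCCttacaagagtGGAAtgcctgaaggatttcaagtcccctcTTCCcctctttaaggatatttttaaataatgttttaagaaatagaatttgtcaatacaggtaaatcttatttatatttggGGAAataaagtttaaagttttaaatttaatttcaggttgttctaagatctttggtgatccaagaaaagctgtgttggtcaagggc
Erg, start C: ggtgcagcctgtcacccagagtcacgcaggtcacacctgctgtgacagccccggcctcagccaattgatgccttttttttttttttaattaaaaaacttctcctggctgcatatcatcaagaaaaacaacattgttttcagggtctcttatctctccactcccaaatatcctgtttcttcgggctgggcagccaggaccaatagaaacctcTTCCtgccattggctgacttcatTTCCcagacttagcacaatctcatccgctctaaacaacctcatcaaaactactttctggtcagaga
The Ets2 promoter held 1 core in 300 bases with 71.7% G and C, and the Erg promoters held 1, 4 and 2 cores with 50.3%, 37.3% and 46.0% G and C. A core of 4 bases is common, since 96% of 32851 mouse promoters of this length held at least 1, with a median of 3. The longer ETS motif CCGGAAGT, which contains the core and was searched on both strands, stood in 3.89% of them and was found in none of these 4, nor in the promoters of Elk3, Etv1, Etv5 and Etv6. Promoters of Ets1, Fli1 and Etv4 were not analysed here.

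In GRCm38.p6, Ets2 spans chr16:95702407-95721049 and Erg spans chr16:95359169-95586600. Ets1 and Fli1 are neighbours at chr9:32636241-32757820 and chr9:32422204-32543432. Elk3 is at chr10:93247415-93311159, Etv1 at chr12:38780082-38870483, Etv4 at chr11:101769747-101785310, Etv5 at chr16:22381313-22439570 and Etv6 at chr6:134035700-134270158. Elk3 shares 1126 exonic bases with Cdk17 on the opposite strand, and whether the counting used strand is not given in the sources used here.

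Among the 9 genes, Elk3 and Ets2 had the highest level per kilobase of exon in the 10 WT hearts, at 282 ± 22.1 and 282 ± 27.2 normalised reads (SD, n = 10). Next came Ets1 with 227 ± 12.3, Erg with 163 ± 45.5, Etv6 with 132 ± 12.1 and Fli1 with 100.2 ± 33.8. The PEA3 group was lowest per kilobase, with Etv5 at 69.6 ± 13.0, Etv1 at 62.4 ± 13.6 and Etv4 at 43.7 ± 10.1. The ranges over hearts overlapped between each pair of neighbours in this order except Ets2 and Ets1, where the lowest Ets2 value (254) was above the highest Ets1 value (243). Levels per gene (normalised read counts, not per length) varied least over all 20 libraries for Ets1, by 1.18-fold from lowest to highest, and most for Etv4, Fli1 and Erg, by 2.66, 2.65 and 2.5-fold. Etv4 was the most thinly covered, with 32 to 266 reads in a library, against 285 to 897 for Erg and 537 to 3524 for Ets2.

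Ets2 was higher in both strains than in littermates, by close to the ratio of gene copies. In the WT littermates of Dp3Tyb its normalised read count, reads divided by a size factor of the library, was 1754, 1827, 1669, 1872 and 1577, with a mean of 1739.9 ± 119 (SD, n = 5). The Dp3Tyb hearts had 2398, 2574, 2704, 2459 and 2466, with a mean of 2520.1 ± 121 (SD, n = 5). No heart of one group reached into the other. The log2 fold change was 0.54 ± 0.06 (SE, 95% confidence interval 0.39 to 0.68), a 1.45-fold increase, and passed the threshold of 0.05 (limma, Benjamini-Hochberg adjusted p = 0.0174). It was the only one of the 9 genes called in Dp3Tyb, where 0.0542% of 14763 tested genes were called and where the groups of 0.975% of genes did not overlap. The call was lost, with adjusted p from 0.0591 to 0.0862, when WT replicate 1, 2 or 3 or Dp3Tyb replicate 1, 2, 3 or 4 was left out, while the log2 fold change stayed between 0.50 and 0.56.

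The same gene in the Ts1Rhr cohort stood at 1646, 1642, 1671, 1667 and 2153 in WT littermates, a mean of 1756 ± 223 (SD, n = 5). In the Ts1Rhr hearts it stood at 2602, 2343, 2522, 2454 and 2576, a mean of 2499 ± 104 (SD, n = 5). WT replicate 5, at 2153, was far above the other 4 WT hearts, yet it was still below the lowest Ts1Rhr heart at 2343. The log2 fold change was 0.52 ± 0.08 (95% confidence interval 0.34 to 0.69), 1.43-fold, and the adjusted p of 0.0739 missed the threshold, in a comparison that called 0.0269% of 14867 genes and left 1.12% without overlap. Without WT replicate 5 the log2 fold change was 0.59 and the adjusted p 0.0037, and DESeq2 on the recovered reads gave 0.51 with an adjusted p of 1.7e-05, whereas edgeR gave 0.51 with 0.0705. Ets2 in Ts1Rhr passed in 4 of 13 alternative settings (adjusted p from 1.7e-05 to 0.996) and in 1 of 10 fits with 1 library left out (0.0037 to 0.295), and it was lowest at 0.39 with the endothelial term (adjusted p = 0.102) and 0.41 without libraries over 10% mitochondrial (adjusted p = 0.996). With all 10 mutant hearts set against all 10 WT hearts, Ets2 was higher by 0.53 ± 0.05 on the log2 scale (adjusted p = 2.7e-06, 0.248% of 15348 genes called), higher than the WT mean in 10 of 10 mutant hearts and without overlap, as were 0.13% of genes.

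Erg differed from Ets2 in that its spread within groups was as large as the difference between them. Its normalised read counts were 518, 423, 439, 407 and 837 in the WT littermates of Dp3Tyb (mean 525 ± 179.6 SD) and 634, 550.1, 585, 552 and 1018 in Dp3Tyb (mean 668 ± 199 SD). In each of these groups replicate 5, the library with a high mitochondrial share, was far above the other 4. The log2 fold change of 0.36 ± 0.22 (95% confidence interval -0.13 to 0.85) had an adjusted p of 1.0. The interval holds both 0 and the log2 copy ratio of 0.58.

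In the Ts1Rhr cohort, Erg was at 718, 557, 498, 798 and 488 in WT littermates (mean 612 ± 139 SD) and at 804, 876, 544, 645 and 642 in Ts1Rhr (mean 702 ± 134 SD). The highest hearts were again those with a high mitochondrial share, namely replicates 1 and 4 of the WT littermates and mutant replicates 1 and 2. The log2 fold change was 0.21 ± 0.16 (95% confidence interval -0.14 to 0.56, adjusted p = 0.795), and the interval ends just short of the log2 copy ratio. Without the 2 hearts labelled with defects, which are the same 2 libraries, it was 0.02 (adjusted p = 0.953). Over both strains Erg was 0.28 ± 0.14 on the log2 scale (95% confidence interval -0.01 to 0.58, limma adjusted p = 0.625), with 5 of 5 Dp3Tyb hearts and 4 of 5 Ts1Rhr hearts above the mean of their own WT littermates.

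Erg passed the threshold over both strains once the mitochondrial share entered the comparison. With that share as a term in the fit, its log2 fold change was 0.37 ± 0.05 (adjusted p = 5.4e-05, 2.13% of genes called), and without the 7 libraries over 10% it was 0.35 ± 0.06 (adjusted p = 0.0151, 0.407% of genes called). By strain, the fit with the term gave 0.39 ± 0.07 in Dp3Tyb, past the threshold (adjusted p = 0.0397, with 0.305% of genes called), and 0.35 ± 0.07 for Ts1Rhr, short of it (adjusted p = 0.0553, with 0.168% called). Ets2 gave 0.51 ± 0.04 over both strains with the same term (adjusted p = 4.6e-09).

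**Figure D1:**
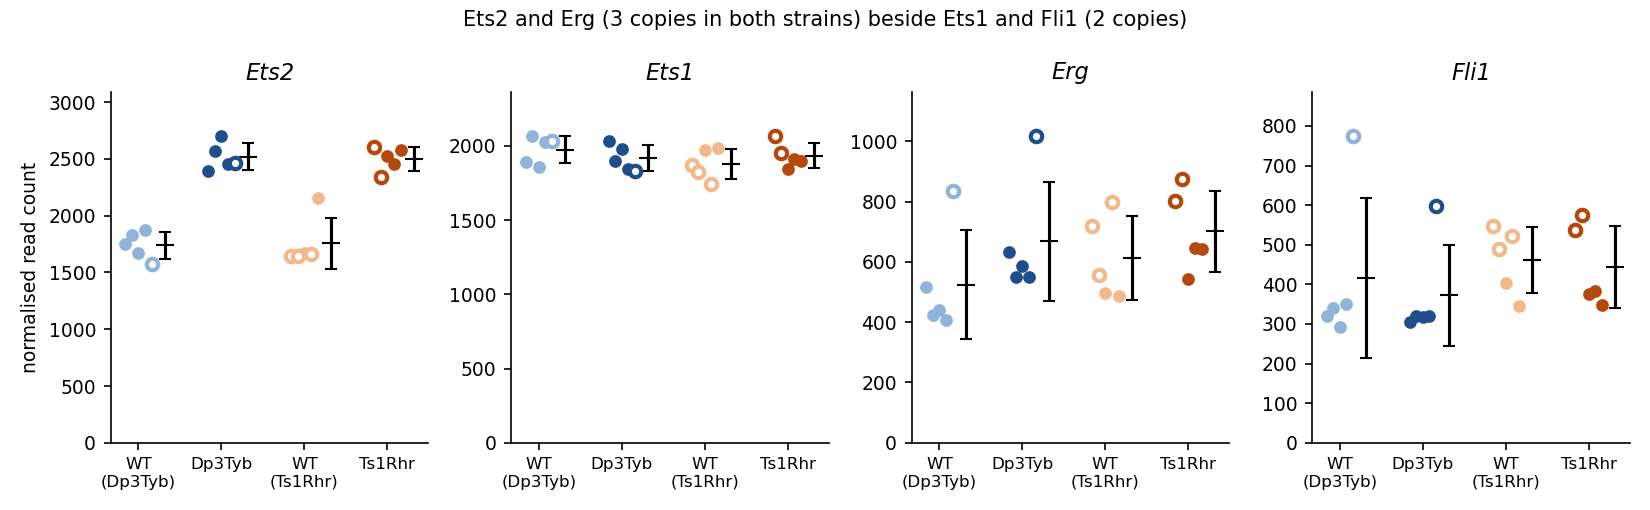
Normalised read count of Ets2, Ets1, Erg and Fli1 in each heart (points), by group, with the mean and SD of 5 hearts in black; open points mark the 7 libraries with over 10% mitochondrial reads, and every axis starts at 0. The 10 mutant hearts lie between 2343 and 2704 for Ets2, above all WT hearts (1577 to 2153), whereas the groups overlap for Erg and the open points are among the highest for Erg and Fli1.

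A ratio to a 2-copy paralogue in the same library is free of library scaling, and its mean was higher in the mutants for both triplicated genes in both strains. The ratio of Ets2 to Ets1 was 0.927, 0.884, 0.897, 0.925 and 0.776 in WT littermates of Dp3Tyb (0.882 ± 0.0618, SD, n = 5) and 1.18, 1.36, 1.36, 1.33 and 1.35 in Dp3Tyb (1.32 ± 0.0774). The groups did not overlap, and the ratio was 1.49-fold higher in Dp3Tyb (log2 difference 0.58 ± 0.06, 2-sided exact permutation test over 252 splits, p = 0.00794, the smallest it can give, adjusted over 4 tests p = 0.0106). In the other cohort it was 0.878, 0.901, 0.848, 0.955 and 1.09 in WT hearts (0.933 ± 0.0934) and 1.26, 1.2, 1.37, 1.29 and 1.36 in Ts1Rhr (1.29 ± 0.0696), without overlap and 1.39-fold higher (0.47 ± 0.07, exact p = 0.00794, adjusted p = 0.0106).

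The ratio of Erg to Fli1 was 1.62, 1.25, 1.50, 1.16 and 1.08 in WT littermates of Dp3Tyb (1.32 ± 0.231) and 2.08, 1.72, 1.84, 1.73 and 1.70 in Dp3Tyb (1.81 ± 0.157). Replicate 5, high for each of the 2 genes, had the lowest ratio of its group in both groups (1.08 and 1.70), and the groups did not overlap. The ratio was 1.38-fold higher (log2 difference 0.47 ± 0.12, exact permutation p = 0.00794, adjusted p = 0.0106). In the Ts1Rhr cohort the ratio was 1.31, 1.13, 1.24, 1.53 and 1.41 in WT hearts (1.32 ± 0.152) and 1.49, 1.52, 1.45, 1.69 and 1.85 in Ts1Rhr (1.60 ± 0.165). These groups overlapped, although all 5 Ts1Rhr hearts were above the WT mean, and the difference of 0.27 ± 0.10 (1.21-fold) had an exact permutation p of 0.0317 (adjusted p = 0.0317). That call rested on single libraries, since the p was 0.0556 to 0.0714 without WT replicate 1, 2, 3 or 5 or Ts1Rhr replicate 4 or 5. The share of genes called has no counterpart for these ratios, which are 4 single tests.

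**Figure D2:**
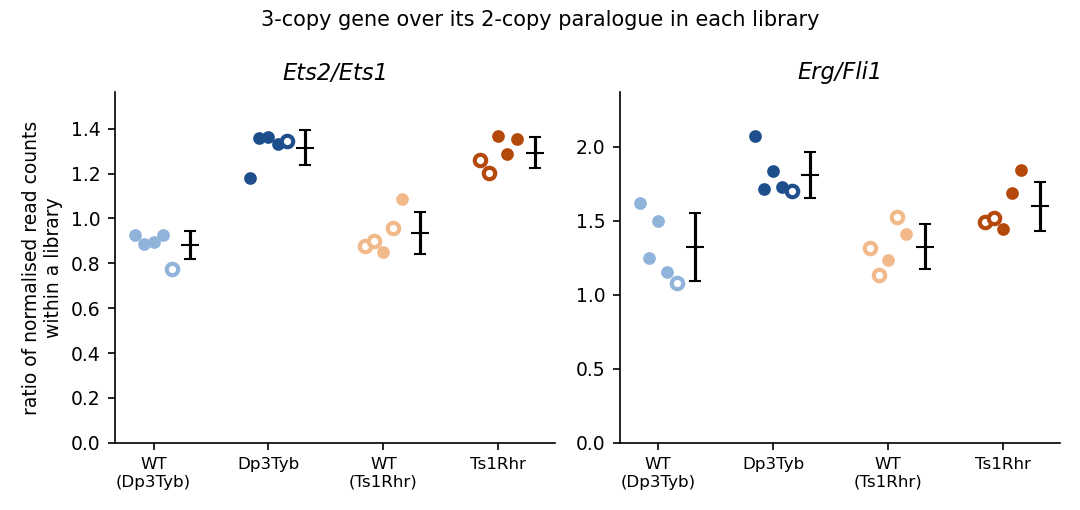
Ratio of the normalised read count of a 3-copy gene to that of its 2-copy paralogue in each heart (points), by group, with the mean and SD of 5 hearts in black; open points mark libraries with over 10% mitochondrial reads, and the axes start at 0. Ets2/Ets1 is 0.776 to 1.09 in WT hearts and 1.18 to 1.37 in mutants, and Erg/Fli1 overlaps between groups in the Ts1Rhr cohort only.

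The other genes of the 3-copy interval show where the pair stands among its neighbours. They were listed from the RefSeq annotation between the breakpoints. The list holds 37 genes for Dp3Tyb and 30 for Ts1Rhr, in each case fewer than the study counts. In Dp3Tyb, 27 of 36 protein-coding genes of the interval in the table were tested, all 27 had a positive log2 fold change, 7 were called (0.0542% of all genes) and the median was 0.52 (quartiles 0.47 and 0.64), against a median of -0.0027 over all tested genes. Ets2 was number 13 of 27 from the top and Erg number 27. In Ts1Rhr 21 of 29 were tested, 20 had a positive value, 4 were called (0.0269% of all genes) and the median was 0.51 (quartiles 0.39 and 0.56). Ets2 was number 10 and Erg number 19 of 21. The number called rested on single libraries. Over all genes, 8 were called in Dp3Tyb, but 2 to 4 when any heart of that cohort other than the pair numbered replicate 5 was left out, 6 without Dp3Tyb replicate 5 and 13 without WT replicate 5. In Ts1Rhr 4 were called over all genes, but 1 or 2 without any heart other than Ts1Rhr replicate 2 or 3, which left 4, or WT replicate 5, which left 6. Bace2, encoding a relative of beta-secretase, was among the highest in both strains, at 0.75 ± 0.07 for the Dp3Tyb hearts (adjusted p = 0.0030) and 0.79 ± 0.08 for the Ts1Rhr hearts (adjusted p = 0.0067). Dyrk1a, a kinase gene between the breakpoints, had 0.46 ± 0.10 and 0.38 ± 0.08 (adjusted p = 0.478 and 0.415).

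None of the 7 genes with 2 copies passed the threshold in either strain, nor in both strains together. Ets1 had the narrowest intervals of the 7, with log2 fold changes of -0.04 ± 0.06 in Dp3Tyb (95% confidence interval -0.17 to 0.08) and 0.04 ± 0.06 in Ts1Rhr (-0.08 to 0.17). A change as large as the copy ratio lies outside both of these intervals. Fli1, the endothelial paralogue of Erg, had wider intervals, at -0.11 ± 0.27 (-0.71 to 0.49) and -0.07 ± 0.17 (-0.43 to 0.29). Its counts were 320.0, 339.6, 292, 351 and 775 in the WT littermates of Dp3Tyb and 306, 320.0, 318, 319 and 599 in Dp3Tyb. In the second cohort they were 546, 490.4, 403, 523 and 346 in WT hearts and 538, 575, 377, 382 and 348 in Ts1Rhr. Replicate 5 in each group of the Dp3Tyb cohort stood far above the other 4 hearts of its group.

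Elk3 ranged from 1532 to 1912 over all 20 hearts and Etv6 from 934 to 1285, and both had log2 fold changes within 0.05 of 0 in each strain. Etv1, from 648 to 1312, had -0.15 ± 0.18 in Dp3Tyb and -0.15 ± 0.13 in Ts1Rhr (adjusted p = 1.0 and 0.795). Etv4, the lowest of the group, had -0.02 ± 0.21 and 0.30 ± 0.20 (adjusted p = 1.0 and 0.795), and the value in Ts1Rhr was 0.16 to 0.41 with 1 library left out and 0.045 with sample weights. Its counts overlapped in both cohorts.

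Etv5, a member of the PEA3 group that responds to FGF, was the one 2-copy gene whose groups did not overlap in a strain. The WT littermates of Ts1Rhr had 485, 471, 535, 488 and 416 (mean 479 ± 42.4 SD), and the Ts1Rhr hearts had 616, 579, 751, 625 and 588 (mean 632 ± 69.5 SD). All 5 Ts1Rhr hearts were above the highest WT heart, as in 0.619% of all tested genes. The log2 fold change was 0.40 ± 0.09 (95% confidence interval 0.20 to 0.59), with an adjusted p of 0.461 by limma, 0.0466 by DESeq2, which called 0.168% of genes, and 0.470 by edgeR. DESeq2 was the only one of 13 alternatives in which it passed. In the Dp3Tyb cohort the values were 670.0, 627, 553, 617 and 358 in WT hearts and 639, 690.2, 648, 626 and 448 in Dp3Tyb, and the groups overlapped (0.13 ± 0.17, adjusted p = 1.0). The WT hearts of the Ts1Rhr cohort, with a mean of 479, all had fewer counts than the mean of the WT hearts of the Dp3Tyb cohort (565).

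**Figure D3:**
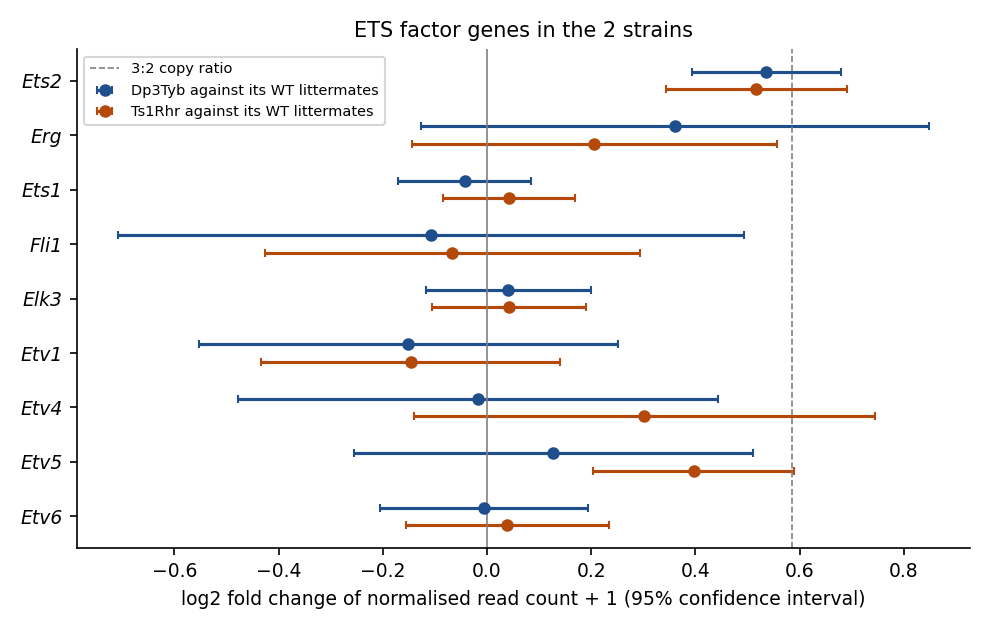
Log2 fold change of the 9 ETS genes in Dp3Tyb (blue) and Ts1Rhr (orange) against WT littermates, as points with 95% confidence intervals, 5 against 5 hearts; the solid line marks 0 and the dashed line the log2 of a 3 to 2 copy ratio, 0.58. The intervals of Ets2 in both strains and of Etv5 in Ts1Rhr lie above 0, and all others include 0.

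None of the 9 genes passed the test of the difference between the 2 strains. The fold change in Dp3Tyb minus that in Ts1Rhr was 0.02 ± 0.10 on the log2 scale for Ets2 (95% confidence interval -0.19 to 0.23) and 0.15 ± 0.29 for Erg (-0.45 to 0.76). For Etv4 and Etv5 it was -0.32 ± 0.31 (-0.96 to 0.32) and -0.27 ± 0.20 (-0.69 to 0.15). With 1 library left out they ran from -0.47 to -0.17 and from -0.43 to -0.16. The difference for Erg then ran from -0.0083 to 0.34, so that its sign changed. All 9 adjusted p were 1.0, and 0.013% of genes were called.

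Between the 2 sets of WT hearts, which share a genotype, none of the 9 genes was called and limma called 0 of 14779 genes, that is 0% (677 at an unadjusted p under 0.05, and 19 by DESeq2 and 0 by edgeR after adjustment). Relative to the WT hearts of the Dp3Tyb cohort, those of the Ts1Rhr cohort had log2 differences of 0.01 ± 0.09 for Ets2, 0.25 ± 0.21 for Erg, 0.23 ± 0.24 for Fli1 and -0.21 ± 0.15 for Etv5, with adjusted p from 0.911 to 0.984. With sample weights limma called 3284 genes, among them Erg at 0.43 (adjusted p = 0.0238), Fli1 at 0.50 (adjusted p = 0.0130) and Etv5 at -0.32 (adjusted p = 0.0142). The Erg and Fli1 differences ran from 0.15 to 0.43 and from 0.13 to 0.48 with 1 library left out. In this comparison 3 of the 5 WT hearts in the Ts1Rhr cohort had over 10% mitochondrial reads against 1 of 5 in the other, and with the mitochondrial term the differences were 0.093 ± 0.076 for Erg and 0.052 ± 0.093 for Fli1.

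The mitochondrial share of a library moved with most of the 9 genes. In a fit with a term for each of the 4 groups, Fli1 rose by 0.82 ± 0.06 on the log2 scale for each 10 percentage points of mitochondrial reads (adjusted p = 1.2e-10), Erg by 0.70 ± 0.06 (3.0e-10) and Etv1 by 0.57 ± 0.05 (2.5e-10). Etv6 and Elk3 rose less, by 0.23 ± 0.05 and 0.19 ± 0.03 (adjusted p = 4.1e-04 and 5.0e-06). Etv5 fell, with a slope of -0.37 ± 0.08 (adjusted p = 3.9e-04), and Ets2 fell slightly, with -0.12 ± 0.05 (adjusted p = 0.0348). The slopes of Etv4 and Ets1 were -0.26 ± 0.17 and -0.02 ± 0.04 (adjusted p = 0.201 and 0.737). Thus 7 of 9 were called, 5 higher and 2 lower, in a fit that called 61.4% of 15348 genes, 29.7% higher and 31.7% lower, so the count of members called is near that of genes at large.

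Of the paralogue pairs, Erg and Fli1 both rose steeply with the mitochondrial share, while the slopes of Ets1 and Ets2 were small and the difference between those was not tested. The cohorts gave like slopes for Erg, with 0.70 ± 0.07 in Dp3Tyb and its littermates and 0.69 ± 0.09 in Ts1Rhr and its littermates, for Etv1 (0.58 ± 0.05 and 0.54 ± 0.08) and for Elk3 (0.18 ± 0.04 and 0.21 ± 0.06), where 57.8% and 38% of genes were called. For Fli1 they were 0.90 ± 0.06 and 0.67 ± 0.11. For Etv5 the slope was -0.55 ± 0.06 among Dp3Tyb and its littermates (adjusted p = 1.0e-06) and -0.04 ± 0.11 in the Ts1Rhr cohort (adjusted p = 0.806), and the difference between those slopes had an adjusted p of 0.213 (0.00652% of genes called). That of Etv4 was -0.53 in the Dp3Tyb cohort (adjusted p = 0.00313) and 0.22 in the Ts1Rhr cohort, with an adjusted p of 0.454 for the difference. The slope of Etv6 did not pass in the Ts1Rhr cohort alone (0.19, adjusted p = 0.136), and that of Ets2 passed in neither cohort alone. The slope of Etv5 over all libraries passed no longer without replicate 5 of the WT littermates of Dp3Tyb (-0.23, adjusted p = 0.053), and that of Ets2 without that library (-0.11, adjusted p = 0.149) or without WT replicate 4 of the Dp3Tyb cohort, WT replicate 4 or 5 of the Ts1Rhr cohort or Ts1Rhr replicate 2. Depth moved with the share, and with a depth term the slopes were 0.60 ± 0.11 for Erg, 0.88 ± 0.13 for Fli1 and 0.72 ± 0.08 for Etv1, all past the threshold, as were 37.1% of genes. With that term the slope of Ets2 no longer passed (adjusted p = 0.425).

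**Figure D4:**
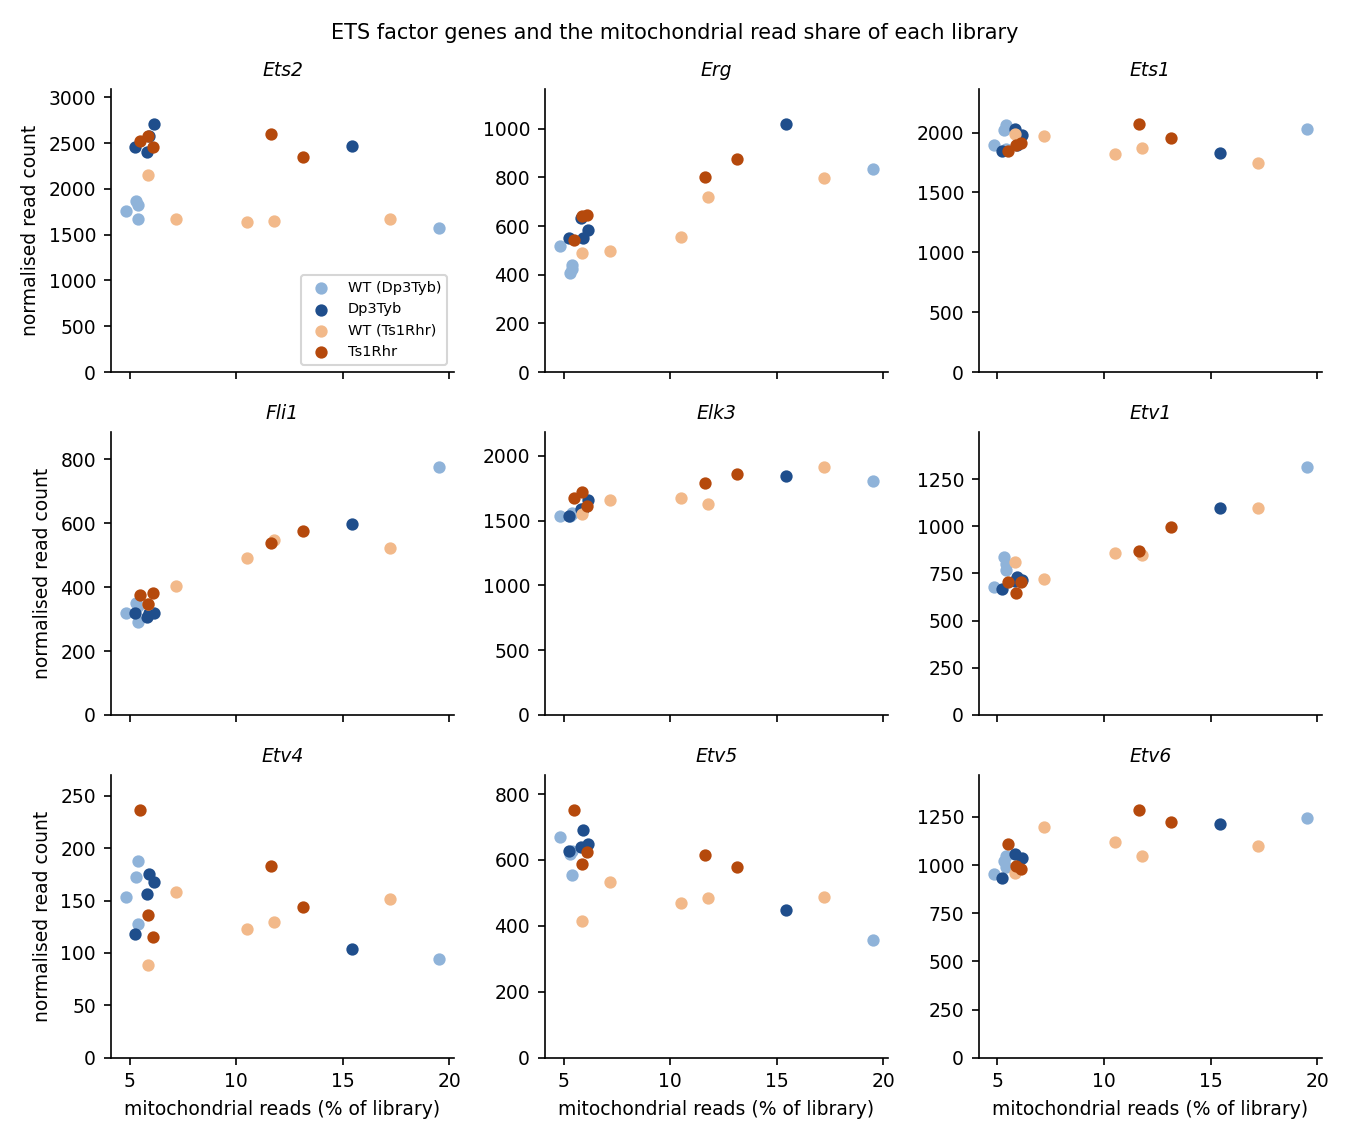
Normalised read count of each of the 9 ETS genes (vertical axes from 0) against the percentage of gene reads from mitochondrial genes in the library (horizontal axes), 1 point for each of 20 hearts, coloured by group. The highest values of Fli1, Erg and Etv1 are in libraries over 10%, Ets1 is level, and the mutant and WT points of Ets2 form 2 bands at all shares.

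Which genes moved together within groups is described by Pearson's r of deviations from group means over 20 libraries, which share depth and mitochondrial share. Among the 9, Fli1 with Etv1 had r = 0.92, Erg with Fli1 0.91, Elk3 with Etv1 0.87 and Etv4 with Etv5 0.81. Ets2 and Erg, which share the extra copy, had r = -0.51, and Ets2 with Ets1 had 0.36. Over all 15347 other genes, the most alike to Erg were Arcn1 (r = 0.98), Ptpn2, Stk3, Zfp386 and Rab2b, none of them an endothelial marker of the list used here. Fli1 was most like mt-Nd6, a mitochondrially encoded subunit of complex I (r = 0.99), then Zfp91, Cycs, which encodes cytochrome c, Kif20b and Nemf. Etv1 was most like Atxn7l1 (r = 0.98), Scnm1, Trdn, which encodes a protein of the cardiac calcium release complex, mt-Co1 and Chmp2a.

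Ets2 went instead with Nceh1 (r = 0.91), Depp1, Coq8a, Txnip and Ltbp2, and Ets1, with little variation, had no partner above Sspn (r = 0.79), followed by Marchf5, Wars2, Zdhhc2 and Klhl2. The nearest to Etv5 were Slc25a38 (r = 0.94), Sf3b4 and Wdr18, and to Etv4 Tagln2 (r = 0.90), Nt5dc2, Xrcc3, Slc7a1 and Tbc1d10b. Elk3 went with Zfp609 (r = 0.97), Cdin1, Exosc10, Tpm2 and Ubap2l, and Etv6 with 2310033P09Rik (r = 0.92), the atrial myosin gene Myh6, Tmem170b, Fam241a and Med1.

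Endothelial markers, a list of 25 genes, mostly ran opposite to Erg, Etv1, Elk3 and Fli1 within groups. The median r with its genes was -0.57 for Erg, -0.47 for Etv1, -0.45 for Elk3 and -0.45 for Fli1, while the other 5 genes ran from -0.12 for Etv6 to 0.47 for Ets2, with medians between -0.07 and 0.02 over all genes. With rising mitochondrial share, 6 of the 25 were called higher and 12 lower (61.4% of all genes called), among them Emcn at 0.72 and Cdh5 at 0.30 but Tie1 at -0.65 and Cldn5 at -0.99 on the log2 scale per 10 points. Summed over the list, normalised counts were 28085 to 31387 in the WT littermates of Dp3Tyb, 28285 to 32126 in Dp3Tyb, 27756 to 30194 in the WT littermates of Ts1Rhr and 30396 to 33956 in Ts1Rhr, and no gene of the list was at 0. By strain, 17 and 22 of 25 had positive log2 fold changes (medians 0.06 and 0.16), none called, and over both strains 1 gene passed, Clec14a, an endothelial adhesion protein gene (0.27 ± 0.06, adjusted p = 0.0373, 0.248% of all genes called). A further fit took the mean log2(value + 1) over the list, not these sums, as a term. There the log2 fold change over both strains was 0.56 ± 0.08 for Erg (adjusted p = 5.3e-04, 1.87% of genes called) and 0.46 ± 0.04 for Ets2 (adjusted p = 8.3e-07).

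Genes that act around ETS factors were also followed from fixed lists. Of 17 other ETS genes, 10 were tested in Dp3Tyb and 11 in Ts1Rhr and none was called (median log2 fold changes 0.01 and -0.01, all genes -0.0027 and -0.0016). The largest differences were those of Spi1, the myeloid factor PU.1 (0.26 ± 0.19 and 0.27 ± 0.16), Fev (0.26 ± 0.36 and -0.35 ± 0.42) and the epithelial factor Elf3 in Ts1Rhr (-0.74 ± 0.35). Etv2, which starts the endothelial lineage earlier in development, was among 4 genes under 10 in all 20 libraries. For the mitochondrial share, 5 of 12 were called higher, with Gabpa, which drives nuclear genes of respiration, at 0.42 (adjusted p = 3.0e-10), and 3 lower, against 29.7% higher and 31.7% lower over all genes.

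The ERK cascade, which activates Ets1 and Ets2, had 10 genes tested and 0 called in either strain (medians 0.0047 and 0.02), and the values of the kinase gene Mapk3 were 0.02 ± 0.07 in Dp3Tyb and 0.07 ± 0.06 in Ts1Rhr. For the mitochondrial share, 2 of the 10 were called higher and 7 lower, against 29.7% and 31.7% of all genes. The furthest from 0 between genotypes were Braf (-0.11 ± 0.15 and -0.17 ± 0.09) and Map2k1 (0.07 ± 0.17 and 0.21 ± 0.15). Of 9 tested FGF ligands and receptors none was called. Fgf10 had 0.25 ± 0.34 in Dp3Tyb and -0.48 ± 0.40 in Ts1Rhr, and Fgfr4 had -0.48 ± 0.29 and 0.13 ± 0.29.

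Feedback inhibitors of ERK are transcribed when FGF signals, as Etv4 and Etv5 are. Of 11 genes of this list that were tested, 9 had positive values in each strain and 0 were called (medians 0.04 and 0.06, against -0.0027 and -0.0016 over all genes). In Ts1Rhr the largest, by limma, were Spry1 at 0.44 ± 0.12, Spry4 at 0.33 ± 0.12 and Dusp4 at 0.29 ± 0.11, all with an adjusted p of 0.795 and an unadjusted p under 0.05, as for 5.52% of genes in this comparison. In Dp3Tyb the largest were Spred3 at 0.19 ± 0.09, Spred2 at 0.10 ± 0.05 and Spsb1, a ubiquitin ligase adaptor gene, at 0.10 ± 0.17, and Spry1 was at 0.04 ± 0.12. Spry1 counts were 198 ± 22.0 in WT littermates and 268 ± 37.1 in Ts1Rhr (SD, n = 5), and the ranges of 170.3 to 219.9 and 213 to 316 overlapped. Of 12 immediate early genes, 3 were higher in Dp3Tyb and 10 in Ts1Rhr, with 0 called (medians -0.08 and 0.12). Egr2 had 0.47 ± 0.27 and Junb 0.36 ± 0.22 in Ts1Rhr, and Egr3 -0.43 ± 0.34, Junb -0.22 ± 0.17 and Fos -0.22 ± 0.14 in Dp3Tyb.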

How the data were processed

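Hearts were snap frozen and poly(A) libraries sequenced. The authors deposited 1 table of a signal, gene reads divided by a size factor of the library, which is not scaled to a fixed total. The submitters' processing notes name Trimmomatic 0.36, STAR 2.5.2a, RSEM 1.2.31 and DESeq2 with GRCm38; the annotation and use of strand are not given in the sources used here. In each library 100% of values were whole multiples of 1 step (tolerance 0.001), so reads were recovered. Comparisons used limma 3.58.1 (R 4.3.3) on log2(value + 1), so folds of low genes are understated, keeping genes that reached 10 in 5 or more libraries of a fit, with a trended robust prior and Benjamini-Hochberg adjustment over all genes. DESeq2 1.42.0 and edgeR 4.0.16 on recovered reads were alternatives, and only the limma fits of each strain were tested on simulated data. Ratios used exact permutation tests. Symbols matched 91.3% of gene IDs. Members and lists were chosen with earlier results of these data known. Named are the 9 genes, list genes past the threshold, the largest changes in the pathway lists and up to 5 genes most like each member; some genes are not reported here. Lengths are exon unions of GENCODE vM39 (GRCm39), and positions are from RefSeq (GRCm38.p6). The control labels carry an initial of the strain and were read as its littermates, and replicate numbers follow the order of listing.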

Additional observations from a re-analysis of the deposited data

Results flagged for a closer look

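Over 44 sets of 5 hearts (the 9 genes and the 2 ratios in each group), 12 held 1 heart whose gap to the nearest other heart was over the critical share of the whole range in Dixon's test. Chance gives about 1 in 20.

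Replicate 5 of the WT littermates of Dp3Tyb and replicate 5 of Dp3Tyb, with 19.5% and 15.4% mitochondrial reads, account for 9 of the 12. The former was the highest of its group for Erg (837 against 518 in the next heart, a gap of 0.741 of the range), Fli1 (775 against 351, 0.877), Elk3 (1809 against 1560.0, 0.901) and Etv1 (1312 against 836, 0.750), and the lowest for the ratio of Ets2 to Ets1 (0.776 against 0.884, 0.720). The latter was the highest for Erg (1018 against 634, 0.820), Fli1 (599 against 320.0, 0.951) and Etv1 (1097 against 731, 0.851), and the lowest for Etv5 (448 against 626, 0.736).

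The other 3 were in libraries with lower mitochondrial shares. Ets2 was high in replicate 5 of the WT littermates of Ts1Rhr (2153 against 1671, a gap of 0.943 of the range). Etv5 was high in replicate 3 of Ts1Rhr (751 against 625, 0.730). The ratio of Ets2 to Ets1 was low in replicate 1 of Dp3Tyb (1.18 against 1.33, 0.820).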

How the results depend on the processing

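All values here are log2 differences. Ets2 kept its direction in Dp3Tyb, in Ts1Rhr and over both strains in all alternatives run other than leaving out 1 library, with 0.51 to 0.56, 0.39 to 0.56 and 0.46 to 0.55. Erg did so too, with 0.35 to 0.51 in Dp3Tyb, 0.02 to 0.58 in Ts1Rhr and 0.22 to 0.56 over both strains. For Ets2, Erg and the ratios, apart from the comparison of WT groups, the main result and the alternative fell on different sides of the threshold in these cases: with scaling to the total of non-mitochondrial reads Ets2 in Dp3Tyb 0.56 (adjusted p = 0.0913) did not pass. With sample weights Erg in Dp3Tyb 0.42 (adjusted p = 0.0484), Ets2 in Ts1Rhr 0.56 (adjusted p = 0.00128), Erg in both strains 0.36 (adjusted p = 0.0195) passed. With a term for the mitochondrial share Erg in Dp3Tyb 0.39 (adjusted p = 0.0397), Ets2 in Ts1Rhr 0.48 (adjusted p = 0.00383), Erg in both strains 0.37 (adjusted p = 5.4e-05) passed. With DESeq2 Ets2 in Ts1Rhr 0.51 (adjusted p = 1.7e-05) passed. With the spread from all 20 libraries Ets2 in Ts1Rhr 0.52 (adjusted p = 0.00232) passed. With the 7 libraries over 10% mitochondrial left out Erg in both strains 0.35 (adjusted p = 0.0151) passed. With the 7 libraries over 10% mitochondrial left out Ets2/Ets1 in Ts1Rhr 0.48 (exact permutation p = 0.1), Erg/Fli1 in Ts1Rhr 0.32 (exact permutation p = 0.2) did not pass. With a term for the endothelial list Erg in both strains 0.56 (adjusted p = 5.3e-04) passed. With the library of highest mitochondrial share left out Ets2 in the mitochondrial slope -0.11 (adjusted p = 0.149) did not pass. With a depth term Ets2 in the mitochondrial slope -0.10 (adjusted p = 0.425) did not pass. With the Dp3Tyb cohort alone Ets2 in the mitochondrial slope -0.093 (adjusted p = 0.105) did not pass. With the Ts1Rhr cohort alone Ets2 in the mitochondrial slope -0.16 (adjusted p = 0.170) did not pass. With the 2 Ts1Rhr hearts labelled with defects left out Erg/Fli1 in Ts1Rhr 0.33 (exact permutation p = 0.0536) did not pass. With 2 WT and 3 Ts1Rhr hearts left, the exact test of a ratio cannot give a p below 0.1, so it says nothing of stability there. These values changed sign, none being past the threshold before or after. With a term for the endothelial list in Dp3Tyb Fli1 0.068, Etv6 0.032, in Ts1Rhr Fli1 0.28, Etv1 0.097, in the difference between strains Erg -0.14, in both strains Fli1 0.19, Etv1 0.028, Etv4 -0.028, in the WT groups Etv1 -0.094. With scaling to the total of non-mitochondrial reads in Dp3Tyb Etv4 0.0064, Etv6 0.017, in both strains Ets1 0.024, in the WT groups Ets2 -0.018, Etv1 -0.020. With a term for the mitochondrial share in Dp3Tyb Etv6 0.0033, in Ts1Rhr Fli1 0.070, in both strains Fli1 0.011, in the WT groups Etv1 -0.12. With the 7 libraries over 10% mitochondrial left out in Dp3Tyb Etv6 0.00027, in Ts1Rhr Ets1 -0.069, Etv6 -0.062, in the difference between strains Ets1 0.053, Etv1 0.032, Etv6 0.063, in both strains Etv6 -0.023, in the WT groups Ets1 0.013, Etv1 -0.0081. With the 2 Ts1Rhr hearts labelled with defects left out in Ts1Rhr Elk3 -0.0098, Etv6 -0.076, in the difference between strains Fli1 0.20, Elk3 0.051, Etv1 0.17, Etv6 0.070, in both strains Etv6 -0.036. With sample weights in Ts1Rhr Etv6 -0.084, in the difference between strains Ets2 -0.049, Fli1 0.17, Elk3 0.033, Etv1 0.048, Etv6 0.079, in both strains Etv6 -0.014, in the WT groups Ets2 -0.085. With DESeq2 in the difference between strains Elk3 0.0033, in the WT groups Etv1 -0.017. With edgeR in the difference between strains Elk3 0.0031, in both strains Ets1 0.0018, in the WT groups Etv1 -0.0072. With TMM scaling in both strains Ets1 0.0073, in the WT groups Etv1 -0.0019. With a depth term in the mitochondrial slope Ets1 0.0082. With the Dp3Tyb cohort alone in the mitochondrial slope Ets1 0.0017. With the Ts1Rhr cohort alone in the mitochondrial slope Etv4 0.22. Leaving out 1 library at a time gave the following ranges: in Dp3Tyb Ets2 0.50 to 0.56, Fli1 -0.29 to 0.14, Elk3 -0.0015 to 0.086, Etv1 -0.28 to 0.0034, Etv4 -0.17 to 0.094, Etv5 -0.029 to 0.23, Etv6 -0.062 to 0.056. In Ts1Rhr Ets2 0.49 to 0.59, Fli1 -0.17 to 0.013, Etv6 -0.013 to 0.085. In the difference between strains Ets2 -0.057 to 0.046, Erg -0.0083 to 0.34, Fli1 -0.23 to 0.21, Elk3 -0.047 to 0.044, Etv1 -0.13 to 0.15, Etv6 -0.10 to 0.017. In both strains Ets1 -0.015 to 0.010, Fli1 -0.17 to 0.032, Etv6 -0.0093 to 0.047. In the WT groups Ets2 -0.068 to 0.034, Etv1 -0.083 to 0.16. In the mitochondrial slope Ets2 -0.14 to -0.074, Ets1 -0.057 to 0.0092, Etv4 -0.37 to -0.049, Etv5 -0.44 to -0.23. The ratio Erg/Fli1 in Ts1Rhr 0.22 to 0.33. The cause of these changes was not tested. With 1 library left out Erg, at no time past the threshold in either strain, ranged from 0.20 to 0.54 in Dp3Tyb and 0.12 to 0.31 in Ts1Rhr. Among the other genes, Etv5 in Ts1Rhr passed with DESeq2 (0.40), Fli1 and Etv5 (0.50 and -0.32) between WT groups with sample weights, as did Erg (0.43), and the slope of Etv4 passed in the Dp3Tyb cohort alone (-0.53, adjusted p = 0.00313) and without replicate 5 of the WT littermates of Ts1Rhr (-0.37, adjusted p = 0.0439). The slopes of Etv5 (-0.040) and Etv6 (0.19, adjusted p = 0.136) did not pass in the Ts1Rhr cohort alone, nor that of Etv5 without the library of highest share (-0.23). Genes called numbered 8 in Dp3Tyb, and 57 with sample weights, 45 with the mitochondrial term, 34 with DESeq2, 30 without libraries over 10% mitochondrial, 19 with the endothelial term, 17 with the spread from all 20 libraries and 4 without the filter. In Ts1Rhr they numbered 4, and 25 with DESeq2 or the mitochondrial term, 16 with sample weights, 13 with the endothelial term, 11 with the spread from all 20 libraries and 0 without the libraries over 10% or the hearts labelled with defects. Over both strains 38 became 438 with sample weights, 327 with the mitochondrial term, 287 with the endothelial term, 170 with DESeq2 and 61 without the libraries over 10%. Between WT groups 0 became 3284 with sample weights, 19 with DESeq2 and 1 with the mitochondrial term, and for the slope 9422 became 5646 in the Ts1Rhr cohort and 5689 with the depth term. No paired analysis was possible because the labels give no replicate numbers that hearts of different groups share. Etv4 had the fewest reads, 32 to 266 in a library, and the separate slopes of the cohorts were chosen after seeing the data.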

Other observations

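Marker lists of other cell types of the heart were set beside the ETS genes, and none of their genes passed the threshold in either strain. Of 11 macrophage markers, 11 had positive log2 fold changes in Dp3Tyb (median 0.25) and 10 in Ts1Rhr (median 0.27). Of 12 mesenchyme markers, 11 and 10 were positive (medians 0.13 and 0.06). Of 15 cardiomyocyte markers, 4 and 7 were positive (medians -0.08 and -0.01). Erythroid markers had 10 of 11 and 11 of 12 positive (medians 0.18 and 0.24), and 11 of 11 were higher in the WT hearts of the Ts1Rhr cohort than in those of the Dp3Tyb cohort (median 0.99), again with 0 called. For epicardium 6 and 7 of 9 were positive (medians 0.0045 and 0.05), and for smooth muscle 4 and 5 of 8 (medians -0.01 and 0.06). Neural crest and Schwann cell markers had 6 of 6 positive in Dp3Tyb (median 0.60) and 1 of 7 in Ts1Rhr (median -0.24).

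Etv6, Etv1, Elk3 and Fli1 ran with cardiomyocyte markers within groups, with a median r of 0.68, 0.63, 0.60 and 0.51 over 15 genes and 20 libraries. The others were Erg with 0.32, Ets1 with 0.21, Etv4 with 0.15, Ets2 with -0.01 and Etv5 with -0.30. With rising mitochondrial share, 8 of these 15 markers were called higher and 5 lower (29.7% and 31.7% of all genes), Tnnt2 (0.84) and Ttn (0.58) among the former and Tnni1 (-0.48) and Myl3 (-0.41) among the latter, all on the log2 scale per 10 percentage points.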
